A study of Petunia x hybrida with 9 samples.

Results

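The phenylpropene synthase and isoflavone reductase-like family was followed in the corolla of the scented garden petunia Mitchell (Petunia hybrida). Members were the loci whose best tomato protein has a description containing eugenol synthase, isoflavone reductase, allergenic isoflavone reductase, phenylcoumaran or pinoresinol. This held for 18 of 94534 loci, from 8 assembled genes and 5 tomato proteins. All were found through only some of these words: 13 loci through phenylcoumaran and 5 through pinoresinol, whereas eugenol and isoflavone stood in 0 descriptions of the table. The 18 loci are also all of those whose description carries the InterPro entry NmrA-like, so the set is described below as phenylcoumaran benzylic ether reductase-like and pinoresinol-lariciresinol reductase-like loci. No locus can be named eugenol or isoeugenol synthase from these descriptions.

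Enzymes of this family are reductases that use NADPH and share a fold. Phenylcoumaran benzylic ether reductases open the ring of dimers made from coniferyl alcohol, and pinoresinol-lariciresinol reductases convert pinoresinol to lariciresinol and secoisolariciresinol, so both act on lignans and their relatives. Isoflavone reductases belong to the same family in legumes, and so do the eugenol and isoeugenol synthases, which in petunia corollas turn coniferyl acetate into the scent compounds eugenol and isoeugenol. The lignan and phenylpropene substrates come from phenylalanine through coniferyl alcohol, whereas isoflavones branch off earlier.

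RNA was sequenced from 9 libraries, 3 of wild type and 3 each of the lines A4 and A9. The submitters describe both lines as overexpressors of a site-directed mutant of PhADT, which encodes arogenate dehydratase, the enzyme that forms phenylalanine from arogenate in plastids. The mutation label R353A is given for the wild-type libraries too, so it separates no group. Plants grew in a greenhouse lit between 6 AM and 9 PM, and flowers opened for 2 days were harvested at 20 h, with 8 or more corollas behind each RNA sample. Neither the promoter of the transgene nor the number of insertions behind a line is stated in the labels.

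The deposited values are FPKM, fragment counts scaled to locus length and sequencing depth, and the steps of low values put that depth between about 30587400 and 43096500 fragments per library. Levels are FPKM, listed for replicates 1, 2 and 3 or as mean ± SD (n = 3). Differences are on the log2(FPKM + 1) scale with their standard error, and understate the change of low loci. Differences with limma adjusted p below 0.05 (Benjamini-Hochberg) are termed called, over the 53284 loci that averaged 1 FPKM or more. Whether the replicates are separate plants is not labelled, and the p-values then reflect only the scatter of these samples, which may be technical. The dehydratase locus XLOC_018765 stood between 80.8 and 108 FPKM in A9 and at no more than 0.0389 FPKM in wild type, but at no more than 0.0579 FPKM in the libraries labelled A4. None of the 15 measured dehydratase loci was called higher in those libraries, and some were called lower. Among these was the most abundant, XLOC_053181, at 1105 ± 82.4 FPKM against 1721 ± 227 FPKM in wild type (limma adjusted p = 0.00394). All dehydratase loci summed to 2206 ± 175 FPKM there, 3466 ± 563 FPKM in wild type and 3465 ± 335 FPKM in A9. Directions drawn from the libraries labelled A4 therefore rest on the label. Words for the petal identity genes (DEFICIENS, APETALA3, GLOBOSA, PISTILLATA, TM6) stood in 0 descriptions, so the tissue could not be checked by them. In the green tissue list (chlorophyll-binding, photosystem and small Rubisco subunit loci), 47 of 104 measured loci were called lower and 9 higher in the libraries labelled A4, and 52 lower and 0 higher in A9. Of all loci, 16.6% were called lower and 15.6% higher for A4, and 10.3% lower and 8.98% higher for A9. The summed level of the list was between 2111 and 2658 FPKM in wild type, between 1220 and 1840 FPKM in the libraries labelled A4 and between 984 and 1486 FPKM in A9. The stamen and carpel words matched 36 measured loci, of which 12 were called lower and 6 higher in the libraries labelled A4 and 8 in each direction in A9. Their summed level was between 360 and 429, between 322 and 387 and between 332 and 371 FPKM in wild type, A4 and A9. In neither marker list was any locus at 0 in all libraries. The part of either tissue in the differences below was not tested, and in bulk RNA fewer cells of a type and less RNA per cell cannot be told apart.

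Of the 8 assembled genes, a pair of phenylcoumaran benzylic ether reductase-like genes held nearly all of the family's summed FPKM. The gene led by XLOC_015369 has 6 member loci, all closest to the tomato protein Solyc04g080550.2.1, and its loci together held 67.9% ± 0.813 of the family's summed FPKM in wild type. The gene led by XLOC_081791 has 4 member loci and held 31.3% ± 0.783. Among them they stood for all but a small remainder of a family sum of 12638 ± 638 FPKM in wild type, which was 1.54% ± 0.0443 of all FPKM of the library. All 5 loci of the pinoresinol type together held 0.528% ± 0.0609 of the family sum.

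The genes differ in how near they are to tomato. XLOC_015366 aligned with residues 1 to 307 of Solyc04g080550.2.1 at 89.58% identity, and XLOC_015369, the shorter contig with the higher level, with residues 1 to 252 at 88.49% identity. The match of XLOC_015366 covers bases 65 to 985 of 3220, so reads from outside the match can enter its value. XLOC_081791 aligned with residues 7 to 304 of the same tomato protein at 46.15% identity, far below the other genes of the family. Its companion loci aligned at 42.93% (XLOC_081789, to Solyc10g052500.1.1), 48.15% (XLOC_081790) and 52.17% (XLOC_081792), the last over 46 residues with an e-value of 2e-07. The name of this gene is therefore that of a distant relative. All other members lay between 78.51% and 89.58% identity with their tomato protein. The match covers contig bases 864 to 1751 at XLOC_081791, a locus ending at base 2553. It covers bases 230 to 814 at XLOC_081789, ending at base 1626, and 864 to 1025 at XLOC_081790, ending at base 1596. At XLOC_015368, XLOC_015371, XLOC_015372 and XLOC_015373 it spans between 96 and 121 residues. Reads from outside the match can thus enter all of these values and the gene sums.

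In wild type the levels fell over more than 3 orders of magnitude. XLOC_015369 was the 8th most abundant of all loci by wild-type mean, with 3999, 4265 and 4380 FPKM, and XLOC_015366 ranked 12th with 2818, 3229 and 3164 FPKM. XLOC_081791 followed at rank 18 with 2173, 2450 and 2335 FPKM, and XLOC_081789 at rank 45 with 1315, 1572 and 1424 FPKM. The libraries of these 4 loci did not overlap from one locus to the next. Below them stood XLOC_015372 between 607 and 617 FPKM, XLOC_015373 between 563 and 576 FPKM and XLOC_081790 between 193 and 197 FPKM, again without overlap. XLOC_015371, XLOC_015368 and the pinoresinol-type XLOC_009802 shared a range, with wild-type means of 53.9, 53.8 and 51.6 FPKM, and could not be ordered. XLOC_023772 was at 31.0 ± 2.98 FPKM, XLOC_009800 at 11.0 ± 1.31 FPKM and XLOC_081792 at 7.70 ± 0.355 FPKM. The lowest measured loci were XLOC_023779, XLOC_023776, XLOC_041973 and XLOC_041974, with wild-type means between 1.66 and 4.23 FPKM, where both loci of each pair overlapped. XLOC_031576, a fragment of 471 bases closest to the pinoresinol-type protein Solyc06g066160.2.1, was listed between 0 and 1.55 FPKM over all libraries, at most 9.9 fragments, and was not tested.

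**Figure D1:**
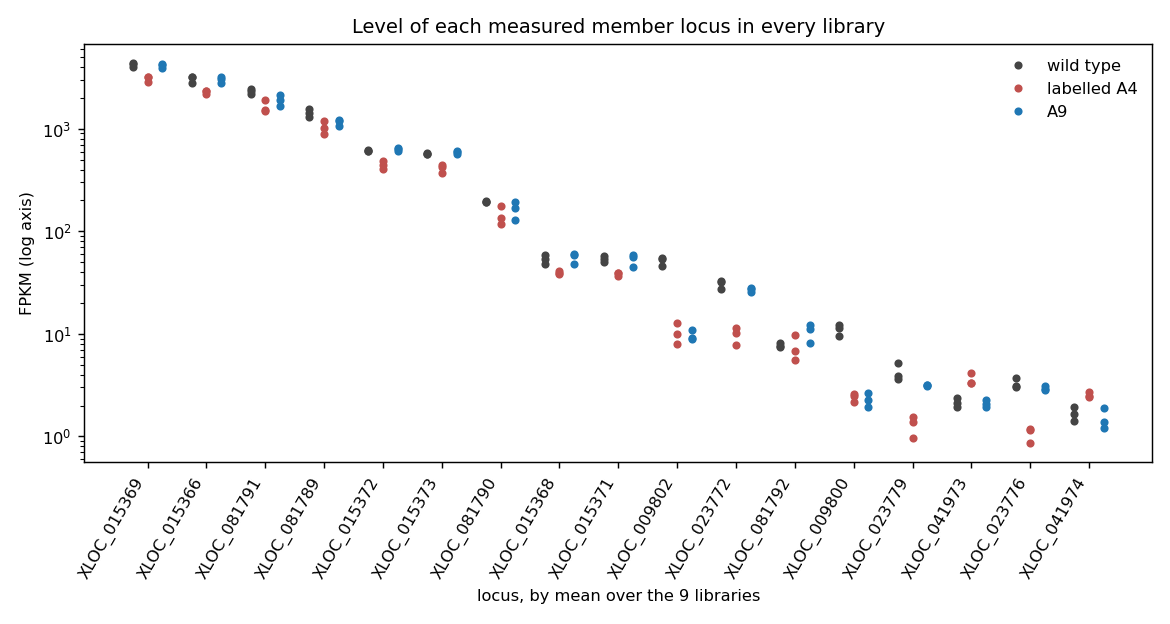
FPKM (log axis) of the 17 measured member loci in every library, ordered by their mean over 9 libraries, with a point per library and colours for wild type, the libraries labelled A4 and A9. The wild-type means run from 4215 FPKM for XLOC_015369 to 1.66 FPKM for XLOC_041974, and XLOC_009802 and XLOC_009800 stand apart in wild type from both other genotypes.

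In the libraries labelled A4, 13 of the 17 measured members were called lower than wild type and 2 higher, and 2 were not called. Over all loci 16.6% were called lower and 15.6% higher in that comparison. The falls came from 6 of 7 measured assembled genes and both rises from the remaining one. The median difference of the members was -0.47, beside -0.04 over all loci tested. Abundant loci were more often lower than higher in these libraries: among the 166 loci averaging 500 FPKM or more the median difference was -0.44, with 53.6% called lower and 5.42% higher. Of the members, 6 belong to that class, with differences between -0.43 and -0.50. In A9, 2 of the 17 members were called lower than wild type and 0 higher, where 10.3% and 8.98% of all loci were called lower and higher. The other 15 members were not called in A9, and intervals for the leading ones follow below.

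**Figure D2:**
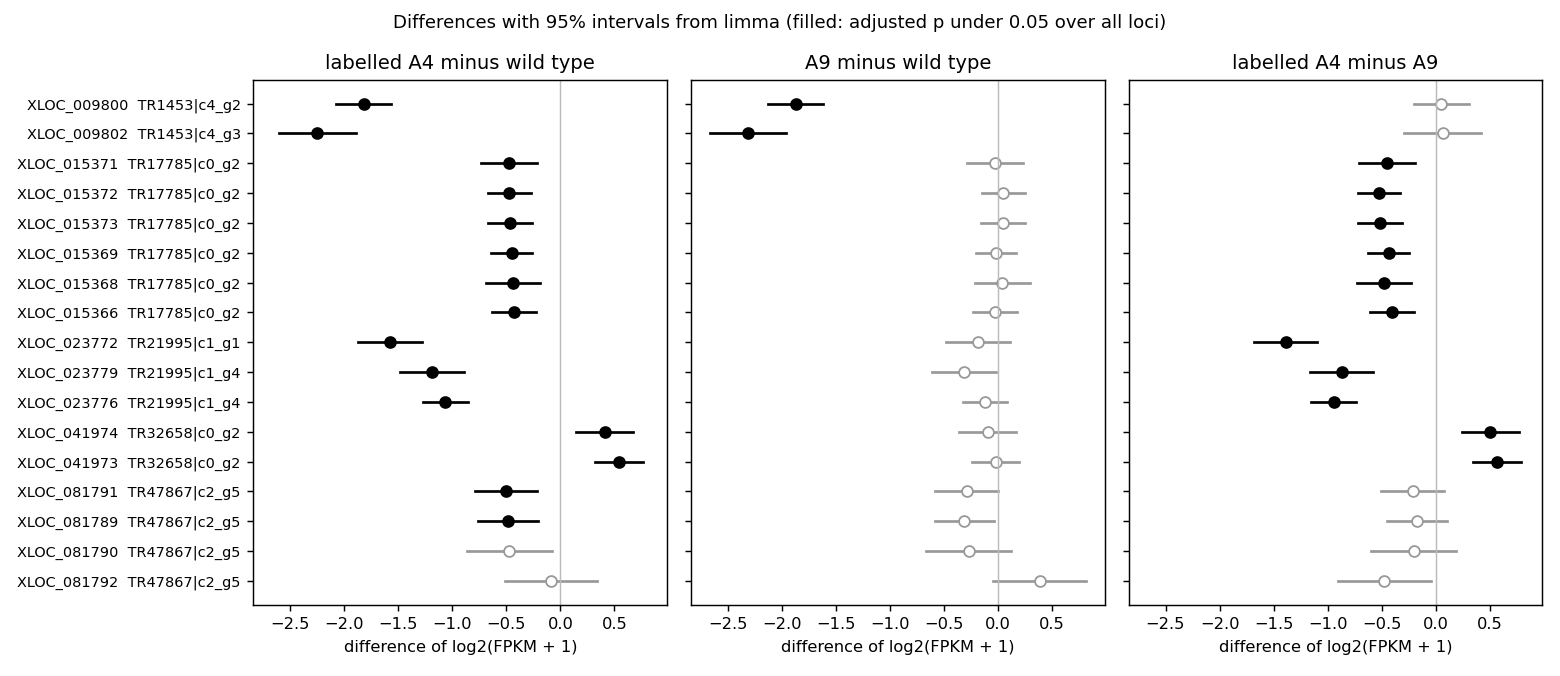
Differences of log2(FPKM + 1) for the 17 measured members, with 95% intervals from limma, for the libraries labelled A4 minus wild type, A9 minus wild type, and the libraries labelled A4 minus A9. The assembled gene stands beside each locus, and filled points had an adjusted p under 0.05. XLOC_009800 and XLOC_009802 lie left of 0 in both panels against wild type and near 0 between the lines, and XLOC_023772, XLOC_023776 and XLOC_023779 lie left of 0 in both panels with A4. The A4 differences of XLOC_015369 turn to above 0 after quantile normalization, which sets values by rank alone.

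The largest difference in the family was a lower level of a pinoresinol-lariciresinol reductase-like gene in both lines. XLOC_009802 aligned with residues 1 to 312 of Solyc06g066170.2.1 at 86.22% identity. It stood at 54.8, 54.3 and 45.8 FPKM in wild type, at 12.6, 9.96 and 8.02 FPKM in the libraries labelled A4 and at 10.9, 9.02 and 8.84 FPKM in A9. Every library of either line was lower than every wild-type library, and the lines overlapped each other. The wild-type mean was 5.06 times that of the libraries labelled A4 and 5.38 times that of A9. The differences were -2.25 (SE 0.16, limma adjusted p = 1.57e-05) and -2.31 (SE 0.16, limma adjusted p = 1.46e-05). Both comparisons share the wild-type libraries. The lines differed from each other by 0.06, with a 95% interval from -0.29 to 0.42 (limma adjusted p = 0.808).

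XLOC_009800, the other locus closest to Solyc06g066170.2.1, moved alike. It stood at 11.4, 12.1 and 9.57 FPKM in wild type, at 2.60, 2.46 and 2.14 FPKM in the libraries labelled A4 and at 2.63, 2.29 and 1.93 FPKM in A9, again with no overlap between wild type and a line. The differences were -1.82 and -1.87 (SE 0.11 each, limma adjusted p of 7.60e-06 and 6.68e-06). The lines differed by 0.05, with an interval from -0.20 to 0.31. In this locus the reductase match covers bases 1603 to 2211 of a contig of 2394 bases, and a further locus of the same assembled gene, XLOC_009801, matched an uncharacterized membrane protein. Reads from outside the reductase match can thus enter the value of XLOC_009800, and how reads were divided between it and XLOC_009802 is not known. XLOC_009801 was lower in both lines too, without overlap with wild type. It was at 0.873 ± 0.0315, 0.485 ± 0.156 and 0.265 ± 0.0470 FPKM in wild type, A4 and A9, under 1 FPKM and so not tested.

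The remaining pinoresinol-type gene went the other way in one line. XLOC_041973, closest to Solyc03g044720.1.1 at 82.52% identity, stood at 1.93, 2.38 and 2.14 FPKM in wild type, at 3.32, 3.31 and 4.19 FPKM in the libraries labelled A4 and at 2.27, 2.08 and 1.96 FPKM in A9. The libraries labelled A4 lay above all others, and wild type and A9 overlapped. These levels rest on between 59 and 172 fragments per library. The difference of the libraries labelled A4 was 0.55 from wild type (SE 0.10, limma adjusted p = 0.00316) and 0.57 from A9 (SE 0.10, limma adjusted p = 0.00578), and that of A9 from wild type was -0.02, with an interval from -0.24 to 0.20. Its companion XLOC_041974, an alternative contig of the same gene, was at 1.66 ± 0.272, 2.53 ± 0.151 and 1.50 ± 0.364 FPKM in wild type, A4 and A9. Its rise of 0.41 (limma adjusted p = 0.0264) did not survive the removal of wild-type replicate 1 or 2, or of A4 replicate 2 or 3 (adjusted p from 0.0574 to 0.0887). The summed level of the pinoresinol type, most of it from XLOC_009802 in wild type, was 66.6 ± 5.98 FPKM in wild type and dropped to 19.0 ± 2.33 FPKM (A4) and 16.2 ± 2.75 FPKM (A9).

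**Figure D3:**
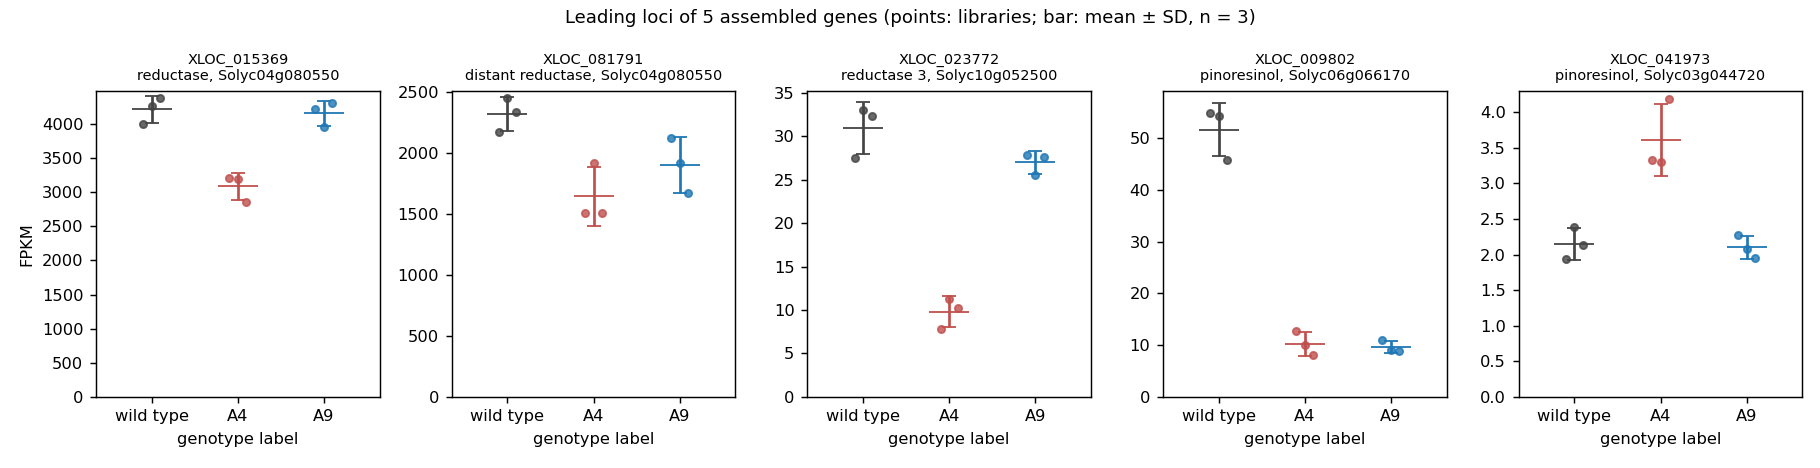
FPKM (linear axes from 0) of the leading locus of 5 assembled genes in wild type and the libraries labelled A4 and A9, with a point per library and a bar for the mean ± SD of 3 libraries. XLOC_009802 is low in both lines, XLOC_023772 is low in the libraries labelled A4 (9.79 ± 1.77 FPKM against 31.0 ± 2.98 FPKM in wild type), and XLOC_041973 is high there. The lower A4 level of XLOC_015369 is not kept after quantile normalization, which sets values by rank alone.

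A phenylcoumaran benzylic ether reductase 3-like gene fell in the libraries labelled A4 and not detectably in A9. XLOC_023772 aligned with residues 1 to 308 of Solyc10g052500.1.1 at 88.64% identity. It stood at 27.6, 33.0 and 32.3 FPKM in wild type, at 7.84, 11.3 and 10.2 FPKM in the libraries labelled A4 and at 27.9, 25.5 and 27.6 FPKM in A9. The libraries labelled A4 lay below all others, at 31.6% of the wild-type mean, while A9 overlapped with wild type. The difference was -1.58 from wild type (SE 0.13, limma adjusted p = 4.35e-05) and -1.39 from A9 (SE 0.13, limma adjusted p = 0.000248). For A9 against wild type it was -0.19, with an interval from -0.48 to 0.11 (limma adjusted p = 0.356).

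A pair of lower loci with the same best protein, XLOC_023776 and XLOC_023779, stood on contigs of another assembled gene and aligned with residues 106 to 308 at 87.19% identity. XLOC_023776 had means of 3.31 ± 0.368 FPKM (wild type), 1.06 ± 0.177 FPKM (A4) and 2.95 ± 0.111 FPKM (A9). XLOC_023779 had means of 4.23 ± 0.848, 1.29 ± 0.297 and 3.16 ± 0.0384 FPKM in the same order. Their levels in the libraries labelled A4 were 32.1% and 30.5% of the wild-type mean, near that of XLOC_023772. Both were called lower in these libraries than in wild type (-1.06 and -1.19) and than in A9 (-0.94 and -0.87, limma adjusted p of 0.000297 and 0.00299). In A9 every library of XLOC_023779 was lower than every wild-type library, but its difference of -0.32 was not called (limma adjusted p = 0.125). The deposited tables do not show how reads were divided between these contigs and XLOC_023772, so they are not independent of it. The reductase match covers contig bases 1863 to 2471 at XLOC_023776, a locus ending at base 2749. At XLOC_023779, ending at base 2914, it covers bases 1933 to 2541. Reads from outside the match can thus enter both values. Other contigs of that second gene, XLOC_023775, XLOC_023777 and XLOC_023778, matched another tomato protein, Solyc11g010490.1.1, and lay at no more than 0.588 FPKM in every library.

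The most abundant gene of the family kept its wild-type level in A9 within narrow limits and was lower in the libraries labelled A4. XLOC_015369 stood at 3210, 3191 and 2855 FPKM in the libraries labelled A4 and at 4219, 3954 and 4308 FPKM in A9, beside the wild-type values of 3999, 4265 and 4380 FPKM. The libraries labelled A4 lay below all others, and A9 and wild type overlapped. The difference from wild type was -0.45 (SE 0.08, limma adjusted p = 0.00379) in the libraries labelled A4, where the level was 73.2% of wild type, but after quantile normalization it turned to 0.061 (limma adjusted p = 0.547). For A9 it was -0.02, with an interval from -0.21 to 0.17. The libraries labelled A4 differed from A9 by -0.43 (SE 0.08, limma adjusted p = 0.00968), which also turned to 0.056 after quantile normalization. That scaling sets each value by its rank in the library. By group mean XLOC_015369 ranked 8 in wild type and 7 in both lines, so its result there follows from rank and cannot measure a change in its level. Both calls were kept in the other 16 alternatives. The fall of XLOC_015369 was about as large as that of the median locus averaging 500 FPKM or more. The summed FPKM of the libraries labelled A4, between 735579 and 767368, was below that of wild type, between 799739 and 835669. Of this sum the family held 1.54% ± 0.0443 in wild type, 1.22% ± 0.0986 in the libraries labelled A4 and 1.48% ± 0.0333 in A9. The part of the lower sum in the fall was not tested.

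The other 5 member loci of this gene lay beside XLOC_015369. Their differences in the libraries labelled A4 ran from -0.43 (XLOC_015366) to -0.48 (XLOC_015371), all called, and in A9 from -0.03 to 0.05, none called. Quantile normalization ended the calls of XLOC_015372 and XLOC_015373 against wild type (limma adjusted p of 0.147 and 0.159). That of XLOC_015368 was lost without A4 replicate 3 or wild-type replicate 2 (limma adjusted p of 0.0539 and 0.0561). The loci are contigs of a single assembled gene and may share reads, so they count as a single observation. XLOC_015369 held 49.2% ± 0.544 of the gene's summed member FPKM in wild type, 49.0% ± 0.362 in the libraries labelled A4 and 48.9% ± 0.320 in A9, and XLOC_015366 held 35.8% ± 1.03, 36.2% ± 0.802 and 35.4% ± 0.548. The make-up of the gene by contig thus moved by about the spread between replicates.

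The distant gene led by XLOC_081791 was lower in the libraries labelled A4 and stood between the other groups in A9. XLOC_081791 was at 1508, 1922 and 1506 FPKM in the libraries labelled A4 and at 2128, 1915 and 1669 FPKM in A9, beside wild-type values of 2173, 2450 and 2335 FPKM. All 6 libraries of the lines lay below the 3 wild-type libraries, and the lines overlapped each other. The difference was -0.50 (SE 0.13, limma adjusted p = 0.0167) in the libraries labelled A4. It was not called after quantile normalization (-0.27, limma adjusted p = 0.0541), nor after removal of wild-type replicate 2 or 3, or of A4 replicate 1 or 3 (adjusted p from 0.0522 to 0.0626). In A9 the difference was -0.29, with an interval from -0.58 to 0.00 (limma adjusted p = 0.151), and the lines differed by -0.21, with an interval from -0.50 to 0.08 (limma adjusted p = 0.284).

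XLOC_081789, whose match starts at residue 107 of its tomato protein, had a wild-type mean of 1437 ± 129 FPKM, against 1031 ± 143 FPKM (A4) and 1157 ± 82.6 FPKM (A9). Its difference in the libraries labelled A4, -0.48, was called (limma adjusted p = 0.0152) but not after quantile normalization (0.346) or without wild-type replicate 2 (0.0545). In A9 its difference was -0.31 (limma adjusted p = 0.107). XLOC_081790 was at 195 ± 1.70, 142 ± 29.6 and 164 ± 31.6 FPKM, and its difference of -0.47 in the libraries labelled A4 was not called (limma adjusted p = 0.0667), though it was without A4 replicate 2 (0.0254), without A9 replicate 3 (0.0423) and with replicate number as a block (0.0391).

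XLOC_081792 did not follow the rest of its gene. It stood at 7.44, 7.54 and 8.10 FPKM in wild type, at 6.80, 9.72 and 5.54 FPKM in the libraries labelled A4 and at 11.2, 12.2 and 8.15 FPKM in A9. The A9 libraries lay above wild type, while the libraries labelled A4 spanned the wild-type values. Its difference of 0.39 in A9 was not called (limma adjusted p = 0.191), and that between the lines, -0.47, was called only without A4 replicate 2 (limma adjusted p of 0.118 with all libraries and 0.0382 without it). Its part of the gene's summed member FPKM was between 0.179% and 0.205% in wild type, between 0.210% and 0.295% in the libraries labelled A4 and between 0.284% and 0.370% in A9. The parts of the other 3 contigs overlapped between all groups.

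Compared directly, the libraries labelled A4 were lower than A9 at 9 members and higher at 2, where 8.13% and 9.91% of all loci were called in these directions. The 9 loci belong to 3 assembled genes, those led by XLOC_015369 and XLOC_023772 and that of XLOC_023776 and XLOC_023779, and the 2 higher loci are XLOC_041973 and XLOC_041974. After quantile normalization 6 members were called lower than in A9: XLOC_015369 turned to 0.056, and XLOC_015366 (-0.21, limma adjusted p = 0.126) and XLOC_015371 (-0.39, limma adjusted p = 0.0656) were no longer called. With FPKM summed over all loci of an assembled gene, the differences of the libraries labelled A4 from A9 were -0.43 for the gene of XLOC_015369 (limma adjusted p = 0.0306), -1.39 for that of XLOC_023772 (0.000213), -0.90 for that of XLOC_023776 (0.00327) and 0.63 for that of XLOC_041973 (0.00719). They were not called for the genes of XLOC_081791, XLOC_009802 and XLOC_009800 (limma adjusted p of 0.341, 0.799 and 0.427). The groups did not overlap, with A4 lower than wild type, at 14 of 17 members (26.3% of all loci) and, with A4 higher, at 2 (21.6%), where 47.9% of all loci did not overlap in either direction. For A9 against wild type this held at 6 members for lower (20.8%) and 1 for higher (17.5%), of 38.3% in either direction. Between the lines it held at 9 members with A4 lower (18.6%) and 2 with A4 higher (17.7%), of 36.3% in either direction.

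**Figure D4:**
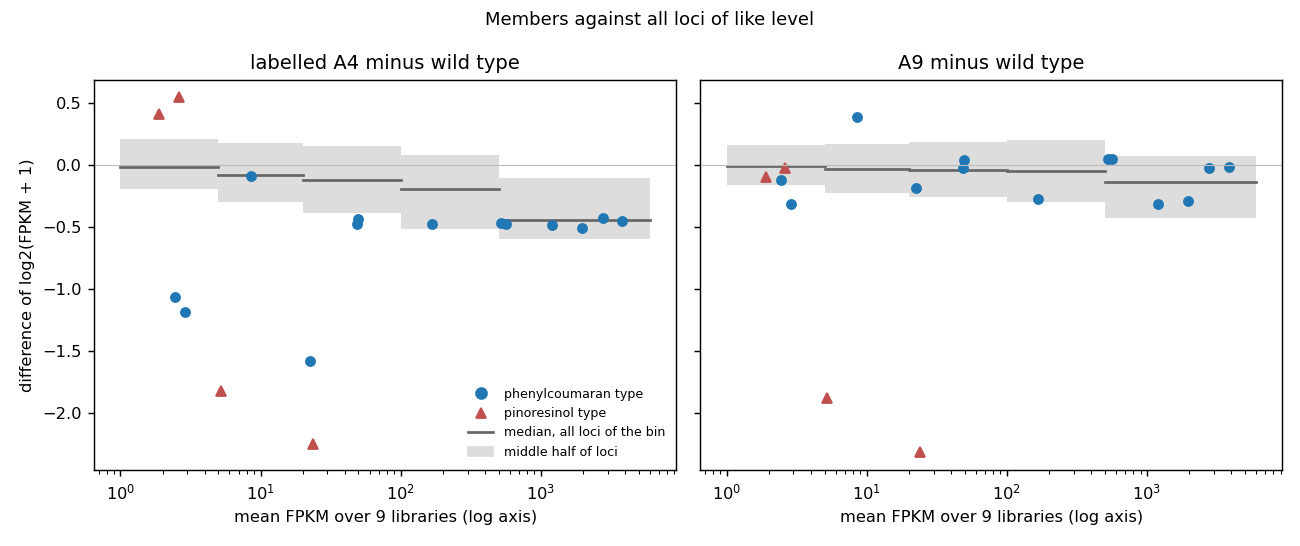
Difference from wild type of each measured member against its mean FPKM (log axis), for the libraries labelled A4 and for A9, drawn over all 53284 loci in bins of mean level, with the median as a line and the range between the quartiles in grey. Members above 500 FPKM lie near the bin median of -0.44 in the libraries labelled A4. XLOC_015369 does not keep that direction after quantile normalization, which sets values by rank alone. In the panel for A4, XLOC_009802, XLOC_009800, XLOC_023772, XLOC_023776 and XLOC_023779 lie far below their bins. In the panel for A9 this holds for XLOC_009802 and XLOC_009800.

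The enzymes that lead from phenylalanine to coniferyl alcohol, with laccases and dirigent proteins that couple it into lignans, were read from a list of description words. It holds 296 loci, of which 163 were measured. In the libraries labelled A4, 60 were called lower and 19 higher, from 22 and 15 assembled genes, with a median of -0.31, where 16.6% and 15.6% of all loci were called in these directions. In A9 21 were called lower and 10 higher, from 10 assembled genes each, with a median of -0.10, near the 10.3% and 8.98% of all loci. The count lower in A9 was 12 without wild-type replicate 2 and 13 without wild-type replicate 3. Of all loci, 3872 and 3279 were called lower in these fits, and 5467 with all libraries. After quantile normalization 32 loci of the list were called lower in the libraries labelled A4. Over all loci 9250 were called lower with that scaling and 8826 without it. The list words for cinnamate 4-hydroxylase, coumarate 3-hydroxylase, caffeic acid O-methyltransferase and coniferyl alcohol acyltransferase, the enzyme that makes the substrate of the phenylpropene synthases, matched no description.

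Phenylalanine ammonia-lyase, which commits phenylalanine to the pathway, had 11 of 17 loci, from 2 assembled genes, called lower in the libraries labelled A4 (16.6% of all loci, and 53.6% of those averaging 500 FPKM or more) and 0 called in A9 (10.3% of all loci called lower). Its leading locus XLOC_082237 was at 3470 ± 674, 2518 ± 297 and 3839 ± 720 FPKM in wild type, A4 and A9, and was not itself called against wild type (limma adjusted p of 0.0926 and 0.623). The leading hydroxycinnamoyl transferase XLOC_052800, which moves the coumaroyl group to shikimate or quinate, fell from 786 ± 36.7 to 523 ± 39.2 FPKM in the libraries labelled A4 (limma adjusted p = 0.00155). The leading caffeoyl-CoA O-methyltransferase XLOC_053395, which adds the methoxy group of coniferyl alcohol, fell from 6576 ± 642 to 4507 ± 507 FPKM (limma adjusted p = 0.0104). Cinnamyl alcohol dehydrogenase XLOC_074193, which forms coniferyl alcohol itself, fell from 533 ± 13.0 to 414 ± 12.8 FPKM (limma adjusted p = 0.00831). In A9 these 3 loci were at 749 ± 50.1, 6014 ± 666 and 569 ± 35.4 FPKM and were not called. Their differences in the libraries labelled A4 were -0.59, -0.55 and -0.36. All 3 loci average 500 FPKM or more, a class with a median difference of -0.44 in those libraries.

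The leading 4-coumarate CoA ligase XLOC_077283 was called in neither line. Nor was XLOC_069051, the leading locus matched by the words for cinnamoyl-CoA reductase. Its description is that of a cinnamoyl-CoA reductase-binding domain, so it may not be the reductase. Only 1 dirigent locus was measured, XLOC_032201. Dirigent proteins steer the coupling of coniferyl alcohol to pinoresinol, the substrate of the reductase named after it. This locus stood at 1.36, 0.448 and 1.19 FPKM in wild type, at 1.02, 0.604 and 0.838 FPKM in the libraries labelled A4 and at 3.79, 4.51 and 5.28 FPKM in A9, where it was called higher (difference 1.49, SE 0.19, limma adjusted p = 0.000872). The A9 libraries lay above all others. Its means were 1.00, 0.819 and 4.53 FPKM in wild type, A4 and A9, so it averaged 1 FPKM over the 9 libraries only through A9. The filter thus kept this locus through the group where it is high, and the call is not independent of that. Its description is that of a dirigent-like disease resistance response protein. Of 16 measured laccase loci, 5 were called higher and 3 lower in the libraries labelled A4 (15.6% and 16.6% of all loci), and 3 higher and 1 lower in A9 (8.98% and 10.3% of all loci). The loci come from 9 assembled genes. In the libraries labelled A4 the higher calls came from 5 of these genes and the lower calls from 1, and in A9 from 3 and 1. The median difference over loci, where a gene can count more than once, was -0.53 in the libraries labelled A4 and 0.59 in A9. The most abundant, XLOC_094055, stood at 5.17 ± 1.26, 7.72 ± 2.32 and 9.18 ± 2.45 FPKM in wild type, A4 and A9 and was not called.

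**Figure D5:**
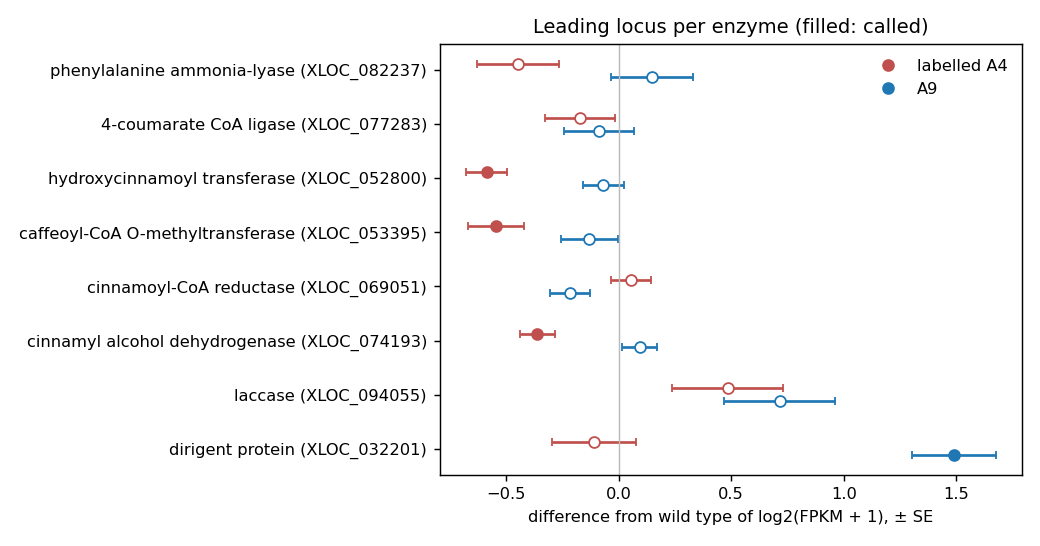
Difference from wild type, on the log2(FPKM + 1) scale with its standard error, of the most abundant locus matched by the words for each enzyme, for the libraries labelled A4 and for A9. XLOC_069051 is described as a cinnamoyl-CoA reductase-binding domain. Filled points had an adjusted p under 0.05, which held for XLOC_052800, XLOC_053395 and XLOC_074193 in the libraries labelled A4 and for XLOC_032201 in A9. XLOC_032201 passed the filter of 1 FPKM only through its level in A9.

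The loci whose pattern over the 9 libraries was most like that of XLOC_015369 came from other processes. Among 16881 loci of other genes averaging 5 FPKM or more and an informative description, the highest Pearson correlations of log2(FPKM + 1) were those of glucose transporter 8 XLOC_014619 (0.980), the F-box protein XLOC_069047 (0.978), the serine protease XLOC_091808 (0.978), the hydroxyproline-rich glycoprotein XLOC_068898 (0.977) and the ARID domain protein XLOC_045816 (0.974). They describe 9 libraries in 3 groups, and 376 loci reached at least 0.9.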

How the data were processed

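FPKM per locus and library were deposited by the authors, with a column per library and no pooling. FastQC 0.11.2 and Bowtie2 2.2.6 are listed in the submitters' processing notes, with no assembler or quantifier and no word on scaling. Per the file headers, a second deposited table lists for each locus its top tomato hit, the percent identity, a BLAST bit score and an e-value. Groups and replicate numbers came from the titles. The median-ratio factors of the deposited FPKM lay between 0.999 and 1.02, so no further scaling was applied.

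Loci averaging 1 FPKM or more were fitted with limma 3.58.1 in R 4.3.3 on log2(FPKM + 1), as 3 group means with a trended prior and Benjamini-Hochberg adjustment over 53284 loci. No count model was run on FPKM. The fit was tested on simulated data. Depth was recovered from low FPKM at loci of 700 to 2000 bases, where 100% of these values lay within 0.1 of a whole fragment.

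An assembled gene is a contig identifier without its isoform suffix. Members and lists were chosen with earlier results of these data known. The naming rule took the leading locus of each assembled gene with a mean of 5 FPKM or more, the 5 lowest adjusted p per direction and comparison, the leading locus of each pathway enzyme and the 5 loci most like the leading member. All other members are also named, outside the rule.

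Alternatives changed the pseudocount, filter, scaling, prior, samples, unit and membership, and left out each library. Deviations from group means correlated between like replicate numbers at 0.248, 0.344 and 0.104 for A9 with wild type. They did so at 0.240, 0.261 and 0.249 for A9 with A4, and at 0.229, 0.192 and -0.125 for A4 with wild type. Between unlike numbers they ran from -0.322 to 0.117, from -0.323 to 0.0680 and from -0.365 to 0.231 in the same order. Like and unlike numbers thus stood apart only for A9 with A4. Any pairing comes from this check alone.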

Additional observations from a re-analysis of the deposited data

Results flagged for a closer look

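The change from wild type differed between the lines at 11 members, tested as the difference of the libraries labelled A4 from A9 on the log2(FPKM + 1) scale in limma. For contigs of the most abundant gene the difference was -0.40 at XLOC_015366, -0.48 at XLOC_015368, -0.43 at XLOC_015369, -0.45 at XLOC_015371, -0.52 at XLOC_015372 and -0.51 at XLOC_015373. For the phenylcoumaran benzylic ether reductase 3-like loci it was -1.39 at XLOC_023772, -0.94 at XLOC_023776 and -0.87 at XLOC_023779. For the pinoresinol type it was 0.57 at XLOC_041973 and 0.50 at XLOC_041974. After quantile normalization XLOC_015369 turned to 0.056, and XLOC_015366 and XLOC_015371 were no longer called (limma adjusted p of 0.126 and 0.0656). Both lines are set against the same wild-type libraries, and loci of a gene may share reads.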

How the results depend on the processing

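XLOC_009800, XLOC_009802, XLOC_023772, XLOC_023776, XLOC_023779 and XLOC_041973 kept their direction where called and their side of the threshold in every alternative that gave them a value. Quantile normalization turned XLOC_015369 to 0.061 in the libraries labelled A4 against wild type (adjusted p = 0.547) and to 0.056 against A9 (0.624), and with it 8 members (13 without it) and 32 pathway loci (60 without it) were called lower than wild type, and 6 members (9 without it) lower than A9. This scaling sets values by rank within a library. By group mean XLOC_015369 ranked 8 in wild type and 7 in both lines, so its own turn follows from its rank. Over all loci, 9250 were called lower in A4 than in wild type with this scaling (8826 without it), and 4580 lower than in A9 (4334 without it). The cause of the other changes was not tested. Counts of fewer units followed summing by construction. Per assembled gene, 6 fell and 1 rose in the libraries labelled A4 against wild type, and 3 fell and 1 rose against A9. Over all units of that fit, 4174 fell and 4970 rose against wild type, and 2437 fell and 3121 rose against A9. Per tomato protein, 3 fell and 1 rose against wild type, 1 fell and 1 rose against A9, and 1 fell in A9 against wild type. Over all units of that fit, 3516 fell and 4185 rose in A4 against wild type, and 2074 fell and 2562 rose against A9. In A9 against wild type 2377 fell and 2825 rose. At a mean of at least 5 FPKM, 0 members were higher in the libraries labelled A4 against wild type or A9, because XLOC_041973 and XLOC_041974 were not tested, and 2, 0 and 8 pathway loci were higher in A4 against wild type, A9 against wild type and A4 against A9. Without a filter these were 45, 29 and 26, and in the main fit 19, 10 and 15. The counts of all loci called higher moved as well. In the same order they were 3020, 2024 and 1954 at 5 FPKM and 14522, 7389 and 8617 without a filter. In the main fit they were 8295, 4786 and 5280. In a fit of the 2 groups 16 pathway loci were lower in A4 against A9, where 2670 of all loci were (4334 in the main fit).

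Leaving out a library gave 10 to 14 members lower and 1 to 2 higher for A4 against wild type, 2 to 2 lower and 0 to 0 higher for A9 against wild type, and 6 to 9 lower and 1 to 2 higher for A4 against A9. Pathway loci were 40 to 61 lower and 13 to 19 higher, 12 to 22 lower and 8 to 11 higher, and 9 to 25 lower and 8 to 17 higher in these comparisons. Of all 53284 loci, 6022 to 8885, 3279 to 5353 and 2055 to 3984 were called lower in turn. Those called higher were 6436 to 8214, 3155 to 4712 and 3133 to 5062. With the replicate block 14 members were lower in A4 against wild type, through XLOC_081790, and the other 5 counts of members were as before. Against A9, XLOC_015366, XLOC_015368, XLOC_015371 and XLOC_041974 lost their calls without some single libraries (adjusted p between 0.0525 and 0.0906). Quantile normalization ended this call for XLOC_015366 (-0.21, adjusted p = 0.126) and XLOC_015371 (-0.39, 0.0656), and a fit of the 2 groups ended it for XLOC_015371 (0.0624).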
